A study of Homo sapiens with 6 samples.

Results

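The 42 genes described here are those of the hypoxia response and of glycolysis, chosen by gene symbol from the 25365 rows of a deposited expression table. They fall into 8 genes of oxygen sensing, 24 genes of glucose transport and glycolysis, and 10 targets of the hypoxia-inducible factors (HIF) outside glycolysis. All 42 had a row. The study measured mRNA by RNA-seq in MDA-MB-231, a human triple-negative breast cancer cell line with mesenchymal features. In each library the cells had been transfected with 20 nM siRNA by lipofectamine RNAiMAX and were lysed after 48 h. The si-Control group of 3 libraries received a non-targeting control siRNA. The si-NRDE2-2 group of 3 libraries received 1 siRNA against NRDE2, a partner of the exosome helicase MTREX in the nucleus. Effects of NRDE2 loss and of that 1 siRNA therefore cannot be told apart. No untransfected group was included, so effects of the control siRNA cannot be separated from these either. No oxygen level is given in the sources used here, and neither group is described as hypoxic. The labels do not say whether the 3 libraries of a group came from separate cultures. The p-values therefore reflect the spread among these libraries alone, and that spread may be technical.

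HIF is a dimer of an oxygen-regulated alpha subunit, HIF-1α (HIF1A) or HIF-2α (EPAS1), and the constant partner ARNT. In oxygenated cells the prolyl hydroxylases EGLN1 to EGLN3 mark the alpha subunit for degradation by the VHL ubiquitin ligase, and HIF1AN hydroxylates it at another site that blocks coactivator binding. Alpha subunits are controlled mainly as proteins, so their mRNA does not report HIF activity by itself. When stabilised, the dimer binds a short hypoxia response element and raises genes of glucose uptake, glycolysis, pH control, angiogenesis and mitophagy. Many tumour lines run glycolysis at a high rate also in air.

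The core letters of a hypoxia response element, ACGTG or GCGTG, were searched on both strands of RefSeq promoter windows (GRCh38.p14), each from 250 bases before to 50 bases after a gene's start. Windows were at hand for 36 of the 42 genes. VHL, SLC2A3, SLC16A1, NDRG1, VEGFA and BNIP3L had no entry. Each sequence below is a stretch of 30 bases within the 250 bases before a RefSeq start. It lies around the first match to ACGTG on either strand, or to GCGTG where there was none. The match began 18 bases before the start for CA9 and up to 234 bases before it for CA12. For some genes, such as LDHA, further matches in those 250 bases are not shown. The sequences set genes that rose with si-NRDE2-2 (CA9, CA12, BNIP3, KDM3A, LDHA, ENO1) beside genes that did not pass the test (ANKRD37, ADM, GAPDH). By GENCODE release 29, all 250 bases before that start lie in annotated exons for CA12, ENO1, ANKRD37 and ADM. Part of them do for BNIP3 (90), CA9 (117, with its neighbour ARHGEF39), GAPDH (128), LDHA (175) and KDM3A (223 or 234 by start). Some of this sequence may thus be transcribed. Each reads 5′ to 3′ on the strand of its gene, with the core letters of either strand in capitals. A run of CACGTG holds the core on both strands at the same place.
CA9 (chr9:35673898-35673927, plus strand): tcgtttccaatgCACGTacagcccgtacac
CA12 (chr15:63382063-63382092, minus strand): gcggatctcaccCACGCctgccagcagctc
BNIP3 (chr10:131982040-131982069, minus strand): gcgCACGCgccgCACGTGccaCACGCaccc
KDM3A (chr2:86441333-86441362, plus strand): ccgggaggctgtGCGTGtcttgtgagagct
LDHA (chr11:18394366-18394395, plus strand): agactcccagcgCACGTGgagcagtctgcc
ENO1 (chr1:8878835-8878864, minus strand): cacccccctttcCACGCtactgcagccgtc
ANKRD37 (chr4:185396667-185396696, plus strand): ggcgccgggctcCACGTGccagtgtttgtg
ADM (chr11:10304960-10304989, plus strand): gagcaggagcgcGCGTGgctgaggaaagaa
GAPDH (chr12:6535171-6535200, plus strand): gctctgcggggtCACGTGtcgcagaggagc

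The core letters stood in promoters of genes with and without a change. At least 1 window held them for 32 of the 36 members (88.9%), beside 70.8% of the 8812 tested genes with a window. Single windows held them in 43 of 65 for the members (66.2%) in 61% of the 12926 windows of tested genes and in 48.4% of all 35116 windows in the table. By the outcome of the test described below, they were found for 14 of the 15 members that rose, 4 of the 4 that fell and 14 of the 17 that passed in neither direction. EGLN3, which rose, had none in its window. These letters are short and common, and a match is a description of sequence, not of binding.

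Values are FPKM (fragment counts scaled by transcript length and library depth) as deposited, and log2 fold changes are si-NRDE2-2 over si-Control on the log2(FPKM + 0.1) scale, ± SE, with Benjamini-Hochberg adjusted p-values from limma over 11789 tested genes. Estimated depth ran from 39200000 to 53600000 fragments per library, and si-NRDE2-2 replicate 3 was the shallowest. NRDE2 was between 3.801 and 4.453 FPKM in si-Control and between 0.229 and 0.234 FPKM in si-NRDE2-2, a ratio of 0.0548, so each library matched its label. The mesenchymal markers VIM, CD44, AXL, EGFR and CAV1 were at 31.8 FPKM or more in every library, while the hormone receptors ESR1 and PGR were at 0.00441 FPKM or less. Of the mesenchymal markers, CD44 rose (0.26 ± 0.04, limma adjusted p = 0.00079) and AXL fell by 0.33 ± 0.04 (limma adjusted p = 0.00012). The 6 luminal markers summed to 23.1 to 23.8 FPKM in si-Control and 20.7 to 21.1 FPKM in si-NRDE2-2, and of them ERBB2 fell by 0.27 ± 0.05 (limma adjusted p = 0.0011), EPCAM was at 7.43 to 8.46 FPKM, GATA3 at 1.96 to 2.36 FPKM and CDH1 at 0.326 to 0.445 FPKM. Of 3 markers of other cell types, the leukocyte marker PTPRC was at 0.0618 FPKM or less. The endothelial marker PECAM1, too low to be tested, was at 0.525 to 0.688 FPKM in si-Control and 0.958 to 1.19 FPKM in si-NRDE2-2. CD68, a lysosomal gene used as a macrophage marker, rose (log2 fold change 0.22 ± 0.05, limma adjusted p = 0.00271). The sum of the 3 was 62.66 to 68.02 FPKM in si-Control and 74.0 to 77.6 FPKM in si-NRDE2-2, and the part of these marker changes in the results below was not tested.

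Of the 41 members that passed the filter on low values, 18 rose and 4 fell at an adjusted p under 0.05 (limma), which is 53.7% called, against 44% of all tested genes (20.9% higher and 23% lower). By group, 7 of 10 HIF targets rose and none fell, 4 of 8 oxygen-sensing genes rose and none fell, and 7 of 23 tested genes of glucose transport and glycolysis rose while 4 fell. The median log2 fold change was 0.30 for the HIF targets, 0.10 for oxygen sensing and 0.06 for glucose transport and glycolysis, beside -0.02 for all tested genes. A longer list of 30 further HIF targets, described below, had 11 higher and 5 lower and a median of 0.04, so the larger median belongs to the 10 listed here. Changes of 1.5-fold or more were few: EGLN3, SLC2A3 and CA12 passed that size, and 4.78% of all tested genes did. The 2 groups of libraries did not overlap for 25 of the 41 members, beside 53.5% of all tested genes. In bulk RNA, fewer cells that express a gene and less RNA per cell cannot be told apart.

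**Figure D1:**
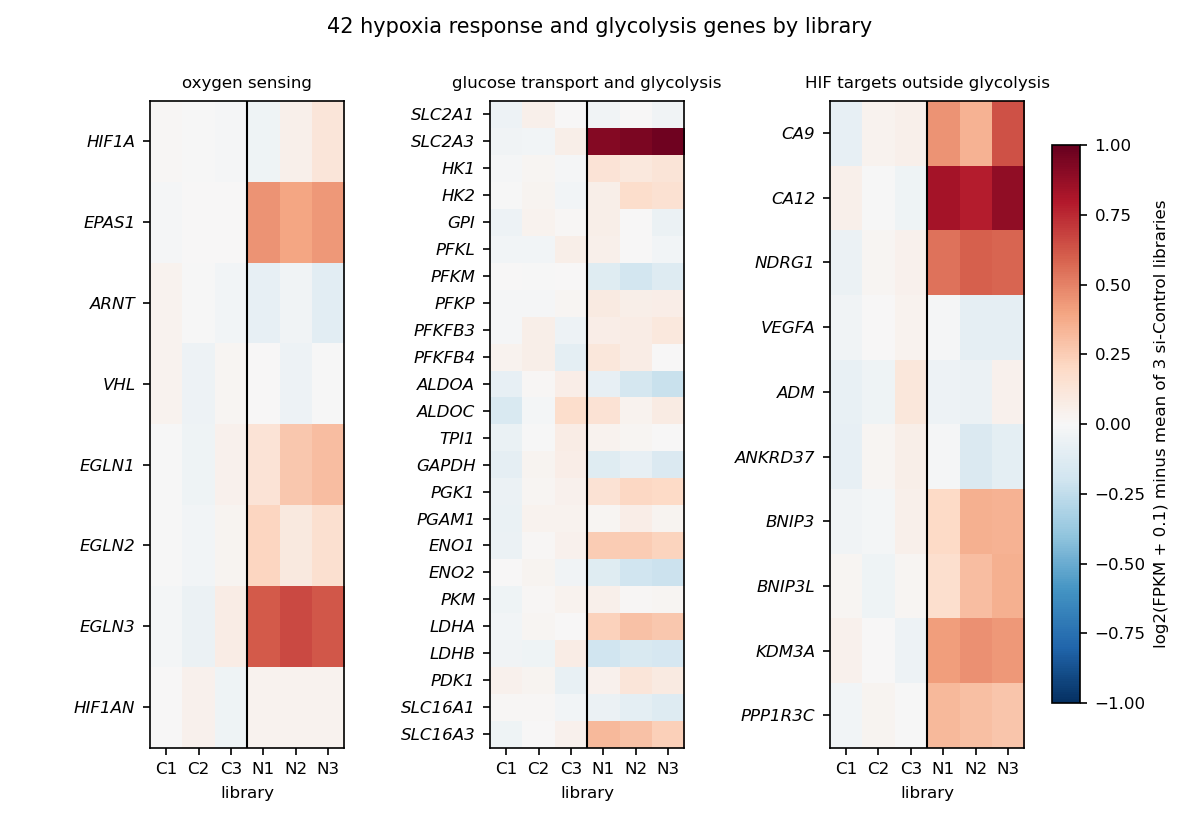
Log2(FPKM + 0.1) of the 42 genes in each library minus the mean of the 3 si-Control libraries, in 3 panels by role (C1 to C3 are si-Control replicates 1 to 3, N1 to N3 are si-NRDE2-2 replicates 1 to 3). SLC2A3, CA12 and EGLN3 stand out in all 3 si-NRDE2-2 libraries, and most glycolytic enzymes stay near 0.

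Among the oxygen sensors, the HIF-2α subunit and the 3 prolyl hydroxylases rose, while HIF1A did not pass the test. HIF1A was at 142, 141 and 140.5 FPKM in si-Control replicates 1 to 3 and at 137, 147 and 154 FPKM in si-NRDE2-2 replicates 1 to 3. The si-NRDE2-2 libraries lay on both sides of the controls and spread more widely (log2 fold change 0.04 ± 0.05, limma adjusted p = 0.506). EPAS1, which encodes HIF-2α, was at 26.0, 26.4 and 26.4 FPKM in si-Control and at 36.0, 34.6 and 35.6 FPKM in si-NRDE2-2. Every si-NRDE2-2 library was above every control, and the mean rose from 26.3 ± 0.221 to 35.4 ± 0.707 FPKM (SD), a log2 fold change of 0.43 ± 0.04 (limma adjusted p = 1.1e-05). On this length-scaled measure HIF1A mRNA stayed the more abundant of the alpha subunits in every library.

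EGLN3, a prolyl hydroxylase that is itself a HIF target, changed most among the sensors. Its level was 8.68, 8.43 and 9.29 FPKM in si-Control and 13.48, 13.99 and 13.56 FPKM in si-NRDE2-2. The groups were well apart, with a ratio of means of 1.55 and a log2 fold change of 0.63 ± 0.05 (limma adjusted p = 4.4e-06). EGLN1, the main HIF hydroxylase in most cells, was at 8.36, 8.15 and 8.66 FPKM against 9.22, 10.1 and 10.4 FPKM, with no overlap (0.24 ± 0.06, limma adjusted p = 0.00695). EGLN2 went from 29.2 ± 0.621 to 32.6 ± 1.37 FPKM (0.16 ± 0.04, limma adjusted p = 0.0145), and without si-Control replicate 2 its adjusted p was 0.0694, the highest of 16 alternatives that ranged down to 0.00062. Of the 3 prolyl hydroxylases, EGLN2 was the most abundant in both groups and had the smallest rise. The partner ARNT was at 9.64 ± 0.225 and 9.14 ± 0.234 FPKM, VHL at 18.7 ± 0.612 and 18.5 ± 0.390 FPKM, and HIF1AN at 11.9 ± 0.355 and 12.2 ± 0.0241 FPKM. None of these passed the test, although the ARNT libraries did not overlap between the groups.

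The strongest rise among HIF targets outside glycolysis was that of CA12, one of the carbonic anhydrases at the cell surface that help to control pH. It was at 8.318, 8.001 and 7.807 FPKM in si-Control and at 14.38, 13.95 and 14.97 FPKM in si-NRDE2-2. The groups did not overlap, and the mean was 8.04 ± 0.258 FPKM in si-Control and 14.4 ± 0.509 FPKM in si-NRDE2-2, a ratio of 1.80 and a log2 fold change of 0.84 ± 0.05 (limma adjusted p = 4.8e-07). CA9, the carbonic anhydrase used as a marker of tumour hypoxia, was lower throughout, at 3.03, 3.30 and 3.35 FPKM against 4.44, 4.13 and 5.06 FPKM. All 3 si-NRDE2-2 libraries were above the controls but differed among themselves more than the controls did (0.48 ± 0.08, limma adjusted p = 0.0008). In GENCODE release 29, 38.5% of the exon bases of CA9 are covered by exons of genes on the opposite strand. No source used here gives the strand setting of the authors' counting, so reads of CA9 and of its neighbour cannot be told apart with certainty.

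NDRG1, a stress-induced gene widely used as a hypoxia marker, was after BNIP3 the most abundant of the HIF targets that rose. Its level was 119, 126 and 128.5 FPKM in si-Control and 181, 189 and 186 FPKM in si-NRDE2-2. The lowest si-NRDE2-2 library lay far above the highest control (ratio 1.49, log2 fold change 0.57 ± 0.05, limma adjusted p = 4.1e-06). KDM3A, a histone H3 lysine 9 demethylase, was at 14.1, 13.7 and 13.2 FPKM against 18.3, 18.8 and 18.5 FPKM. It too showed no overlap (0.44 ± 0.04, limma adjusted p = 2.4e-05).

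The mitophagy receptors BNIP3 and BNIP3L moved together in size. BNIP3 was at 158, 159.6 and 168 FPKM in si-Control and at 186, 207 and 206 FPKM in si-NRDE2-2 (0.30 ± 0.05, limma adjusted p = 0.00106). BNIP3L was at 49.2, 47.3 and 49.4 FPKM and at 54.6, 60.3 and 62.1 FPKM (0.28 ± 0.05, limma adjusted p = 0.00151). In both genes si-NRDE2-2 replicate 1 was the lowest of its group and still above all controls. BNIP3 has 39 pseudogenes named after it in GENCODE release 29, and no source used here says how the authors placed reads shared with them. PPP1R3C, a regulatory subunit that directs protein phosphatase to glycogen, was at 3.01, 3.14 and 3.07 FPKM against 3.87, 3.81 and 3.76 FPKM, a tight and non-overlapping rise (0.30 ± 0.06, limma adjusted p = 0.00238).

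In the same libraries 3 HIF targets did not pass the test. VEGFA, the main angiogenic growth factor and the most abundant of the HIF targets outside glycolysis, was at 239.6, 246 and 251 FPKM in si-Control and at 244, 230.5 and 230.4 FPKM in si-NRDE2-2. Its groups overlapped through si-NRDE2-2 replicate 1 (log2 fold change -0.06 ± 0.05, limma adjusted p = 0.295), and with quantile normalization it was called lower (-0.09, limma adjusted p = 0.0381, with other alternatives up to 0.57). ADM, a vasodilator peptide, was at 11.6, 11.9 and 13.3 FPKM against 11.8, 11.8 and 12.6 FPKM. ANKRD37, an ankyrin repeat gene among the compact HIF targets, was at 6.74, 7.24 and 7.42 FPKM against 7.06, 6.44 and 6.64 FPKM. The groups overlapped for both (-0.02 ± 0.06, limma adjusted p = 0.78 for ADM; -0.09 ± 0.06, limma adjusted p = 0.273 for ANKRD37). ANKRD37 shares 35.2% of its exon bases with exons on the opposite strand. ANKRD37 and ADM carry the core letters shown above, as do CA9 and BNIP3.

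**Figure D2:**
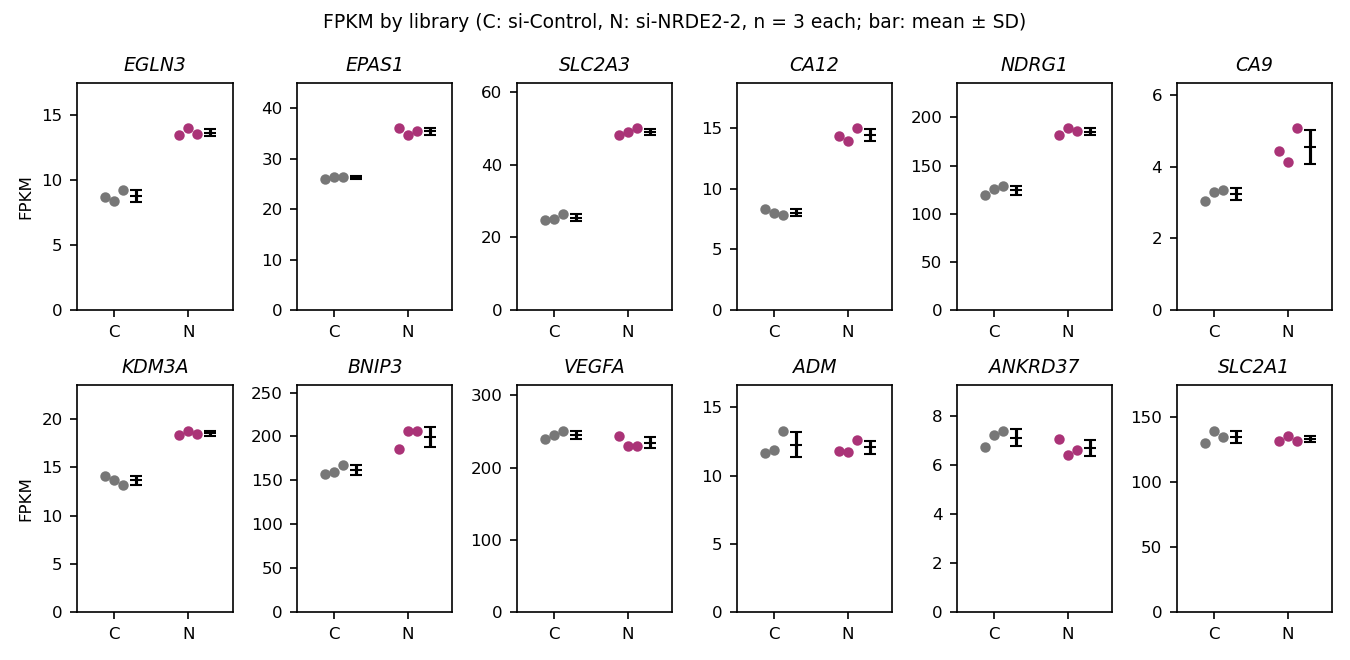
FPKM of 12 members in each library (dots; C is si-Control, N is si-NRDE2-2), with the mean ± SD of the 3 libraries beside them and each axis starting at 0. The groups do not overlap for EGLN3, EPAS1, SLC2A3, CA12, NDRG1, CA9, KDM3A and BNIP3, and they overlap for VEGFA, ADM, ANKRD37 and SLC2A1.

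Glucose transport was split between its transporters. SLC2A1 (GLUT1), the main basal and hypoxia-induced glucose transporter of tumour cells, was at 130.0, 139 and 135 FPKM in si-Control and at 131, 135 and 131 FPKM in si-NRDE2-2. Its groups overlapped fully (log2 fold change -0.02 ± 0.04, limma adjusted p = 0.727). SLC2A3 (GLUT3), a transporter of high glucose affinity, was at 24.79, 24.98 and 26.53 FPKM against 48.2, 49.0 and 49.9 FPKM. This was the largest change of all tested members, with a ratio of means of 1.93 (0.94 ± 0.04, limma adjusted p = 6.4e-08). The near-identical copy SLC2A14 was at 2.69, 2.85 and 2.83 FPKM against 5.45, 5.18 and 5.63 FPKM, a ratio of 1.94. Reads of SLC2A3 and SLC2A14 can be shared, so the split between them is uncertain, but SLC2A3 held most of the signal in each library. Even so, SLC2A1 remained the more abundant transporter: SLC2A3 was 0.191, 0.179 and 0.197 of SLC2A1 in si-Control and 0.367, 0.362 and 0.380 in si-NRDE2-2.

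The first steps of glycolysis changed little. Hexokinase traps glucose as its phosphate. HK1 went from 56.0 ± 0.7495 to 61.0 ± 0.747 FPKM (0.12 ± 0.04, limma adjusted p = 0.0258). HK2, the inducible hexokinase, was at 19.5, 19.9 and 19.1 FPKM against 20.4, 22.1 and 21.7 FPKM, with no overlap (0.13 ± 0.05, limma adjusted p = 0.0375). Both lay near the threshold: neither passed when si-Control replicate 1, si-Control replicate 2, si-NRDE2-2 replicate 2 or si-NRDE2-2 replicate 3 was left out, nor did HK2 without si-Control replicate 3. With 1 library left out the log2 fold change stayed at 0.12 to 0.13 for HK1 and 0.11 to 0.17 for HK2. HK2 also missed the threshold in 4 settings with every library kept, and HK1 in 1. The isomerase GPI was at 76.4 ± 2.37 and 76.5 ± 3.20 FPKM, with overlap.

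Phosphofructokinase commits sugar to glycolysis, and its 3 genes did not move together. PFKM, the muscle form, fell from 19.4 ± 0.0855 to 17.6 ± 0.449 FPKM (-0.15 ± 0.04, limma adjusted p = 0.0161). PFKM no longer passed when si-Control replicate 2 or si-NRDE2-2 replicate 2 was left out. PFKP, the platelet form and the most abundant here, was at 139, 139 and 141.5 FPKM against 149, 145.5 and 146 FPKM. The PFKP libraries did not overlap, yet the change did not pass (0.07 ± 0.04, limma adjusted p = 0.187). With trends in GC content and length removed PFKP was called higher (0.11, limma adjusted p = 0.0059, with other alternatives up to 0.375). PFKL, the liver form, was at 50.2 ± 1.76 and 50.5 ± 1.30 FPKM. The bifunctional enzymes PFKFB3 and PFKFB4 set the level of fructose-2,6-bisphosphate, an activator of phosphofructokinase. PFKFB3 was at 15.8 ± 0.621 and 16.7 ± 0.256 FPKM and PFKFB4 at 10.4 ± 0.619 and 10.9 ± 0.412 FPKM, and neither passed. PFKFB3 was called higher with those trends removed (0.11, limma adjusted p = 0.0256, with other alternatives up to 0.364).

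In the middle of the pathway ALDOA and PGK1 moved in opposite directions. Aldolase ALDOA was at 528, 564 and 586 FPKM in si-Control and at 528, 496 and 479.9 FPKM in si-NRDE2-2. Its adjusted p of 0.0494 (limma, -0.16 ± 0.06) was just under the threshold, with the lowest control and the highest si-NRDE2-2 library almost equal. ALDOA did not pass when replicate 2 or 3 of either group was left out. In all, it lost the call in 9 of 16 alternatives. With every library kept these included a pseudocount of 1, small RNA rows kept and a replicate block. ALDOC was at 11.95 ± 1.43 and 12.6 ± 0.484 FPKM and did not pass, except when si-Control replicate 3 was left out (0.18, limma adjusted p = 0.035, with other alternatives up to 0.945). Triosephosphate isomerase TPI1 was at 609, 636 and 670.1 FPKM against 655, 646 and 639.6 FPKM, with the si-NRDE2-2 libraries inside the range of the controls. GAPDH, the most abundant member and a common reference gene, was at 2653, 2874 and 2963 FPKM against 2605, 2668 and 2557 FPKM. These groups overlapped, and the change did not pass (-0.12 ± 0.06, limma adjusted p = 0.171). Scaling changed that outcome: with all libraries scaled to the same FPKM total GAPDH was called lower (-0.12, limma adjusted p = 0.0126), and with quantile normalization its sign turned (0.04, limma adjusted p = 0.322). Over 16 alternatives its adjusted p ran from 0.0126 to 0.413. GENCODE release 29 names 62 pseudogenes after GAPDH.

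PGK1, the first enzyme of the pathway to make ATP, was at 489.8, 519 and 526 FPKM against 564, 592 and 587 FPKM. The groups were apart (0.18 ± 0.05, limma adjusted p = 0.0149), a call that ended when si-NRDE2-2 replicate 2 or 3 was left out. PGAM1 was at 253 ± 9.96 and 259 ± 4.07 FPKM and did not pass. Its copy PGAM4 was listed at 38.0 to 41.4 FPKM in si-Control and 40.5 to 42.5 FPKM in si-NRDE2-2. Reads of the PGAM1 family may thus have been divided between rows, which was not tested.

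At the enolase step ENO1 rose and ENO2 fell. The ubiquitous enolase ENO1 was at 1056, 1105 and 1132 FPKM in si-Control and at 1311, 1306 and 1281 FPKM in si-NRDE2-2. No si-NRDE2-2 library reached down to the controls (0.24 ± 0.05, limma adjusted p = 0.00433). The neuronal enolase ENO2 fell from 76.0, 77.1 and 73.8 FPKM to 69.6, 65.9 and 65.1 FPKM (-0.18 ± 0.04, limma adjusted p = 0.00723). Pyruvate kinase PKM, the last ATP-making step, was at 751, 780.4 and 793 FPKM against 804, 779.7 and 783 FPKM, with overlap.

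Lactate dehydrogenase interconverts pyruvate and lactate, and its A subunit is the HIF-induced one. LDHA was at 755, 784 and 775 FPKM in si-Control and at 904, 945 and 931 FPKM in si-NRDE2-2, a rise with no overlap (ratio 1.20, 0.26 ± 0.05, limma adjusted p = 0.00188). LDHB was at 372, 368 and 401 FPKM against 331, 341.5 and 339 FPKM. That fall showed no overlap either (-0.17 ± 0.05, limma adjusted p = 0.018), but it was lost without any 1 of the si-NRDE2-2 libraries. SLC16A3 (MCT4), the low-affinity transporter that exports lactate from glycolytic cells, was at 232.5, 241 and 248 FPKM against 301, 294 and 284 FPKM. Its groups were separate (ratio 1.22, 0.29 ± 0.05, limma adjusted p = 0.00077). SLC16A1 (MCT1), the other monocarboxylate transporter on the list, was at 0.828 to 0.854 FPKM in si-Control and 0.764 to 0.807 FPKM in si-NRDE2-2, below the filter of 1 FPKM, so it was left out of the test. In the alternative fit without that filter its log2 fold change was -0.10 ± 0.08 (limma adjusted p = 0.44). An estimated 131 fragments lay behind SLC16A1 in the shallowest library. PDK1, which inhibits pyruvate dehydrogenase and so keeps pyruvate out of mitochondria, was at 9.29 ± 0.431 and 9.86 ± 0.263 FPKM, with overlap and no call. It was called higher with trends in GC content and length removed (0.11, limma adjusted p = 0.0362, with other alternatives up to 0.457).

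**Figure D3:**
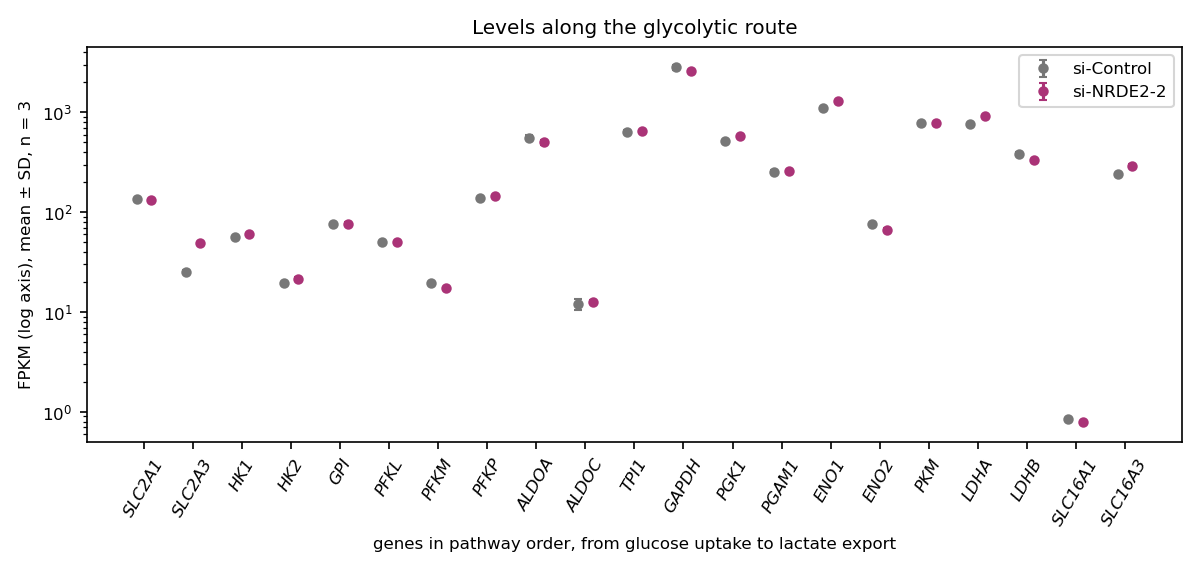
Mean FPKM ± SD (3 libraries each, log axis) of 21 members in pathway order, from glucose uptake on the left to lactate export on the right, in si-Control (grey) and si-NRDE2-2 (purple). GAPDH and ENO1 are the highest and SLC16A1 the lowest, and SLC2A3 shows the widest gap between the groups.

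Ratios of 2 related genes within a library do not depend on scaling between libraries. The ratio of LDHA to LDHB was 2.03, 2.13 and 1.93 in si-Control and 2.74, 2.77 and 2.75 in si-NRDE2-2, a log2 difference of 0.44. The ratio of ENO2 to ENO1 was 0.0720, 0.0698 and 0.0652 against 0.0531, 0.0505 and 0.0508, a log2 difference of -0.42. For both ratios the groups were separate, as they were for SLC2A3 to SLC2A1 (log2 difference 0.97), ALDOC to ALDOA (0.24) and PFKP to PFKL (0.06). Each of these 5 gave p = 0.10 by a two-sided exact permutation test, the smallest value that 3 against 3 libraries allow, and 0.14 after Benjamini-Hochberg adjustment over 7 ratios. So the design could not reach 0.05 for them. The ratio of HK2 to HK1 was 0.348 ± 0.00383 and 0.351 ± 0.0184 (exact permutation p = 0.80), and that of PFKFB4 to PFKFB3 was 0.659 ± 0.0242 and 0.651 ± 0.0341 (exact permutation p = 0.70). SLC16A3 exceeded SLC16A1 by 272, 283 and 299 times in si-Control and by 373, 377 and 372 times in si-NRDE2-2, given as values only because of the low level of SLC16A1.

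Summed over the 17 glycolytic enzymes from hexokinase to lactate dehydrogenase, the mRNA level was 7897, 8342 and 8556 FPKM in si-Control and 8421, 8487 and 8301 FPKM in si-NRDE2-2, so that all si-NRDE2-2 libraries lay within the range of the controls. As a share of a library's FPKM total it was 1.76%, 1.82% and 1.76% against 1.79%, 1.83% and 1.80%. The mean difference in the sum was 138 FPKM, and without si-Control replicate 1 it turned to -45.8 FPKM. Within the sum, GAPDH made up 33.6%, 34.5% and 34.6% in si-Control and 30.9%, 31.4% and 30.8% in si-NRDE2-2, with no overlap.

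The glycolytic enzymes and the HIF targets are set side by side here as a description, with no test of the difference between the lists. Of the 17 enzymes, 5 rose and 4 fell (52.9% called, beside 44% of all tested genes). Their median log2 fold change was 0.03, with a range from -0.18 to 0.26. None reached 1.5-fold. The 10 HIF targets had a median of 0.30 and a range from -0.09 to 0.84. The 30 further HIF targets, with a median of 0.04 and a range from -0.32 to 0.87, were centred near the enzymes. In single libraries, the median of the HIF targets relative to the control mean was -0.04, 0.00 and 0.04 in si-Control and 0.26, 0.33 and 0.35 in si-NRDE2-2. For the glucose transport and glycolysis genes the corresponding medians were -0.04, 0.02 and 0.03 against 0.06, 0.06 and 0.02, which overlapped. The number of these genes that rose was 4 rather than 7 without si-NRDE2-2 replicate 2 or without si-NRDE2-2 replicate 3, and the number that fell was, rather than 4, 2 without si-Control replicate 2, 1 without si-NRDE2-2 replicate 2 and 2 without si-NRDE2-2 replicate 3. The 7 HIF targets kept their calls with any 1 library left out. With only genes of at least 5 FPKM on average, 5 HIF targets rose, since CA9 and PPP1R3C were below that level.

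**Figure D4:**
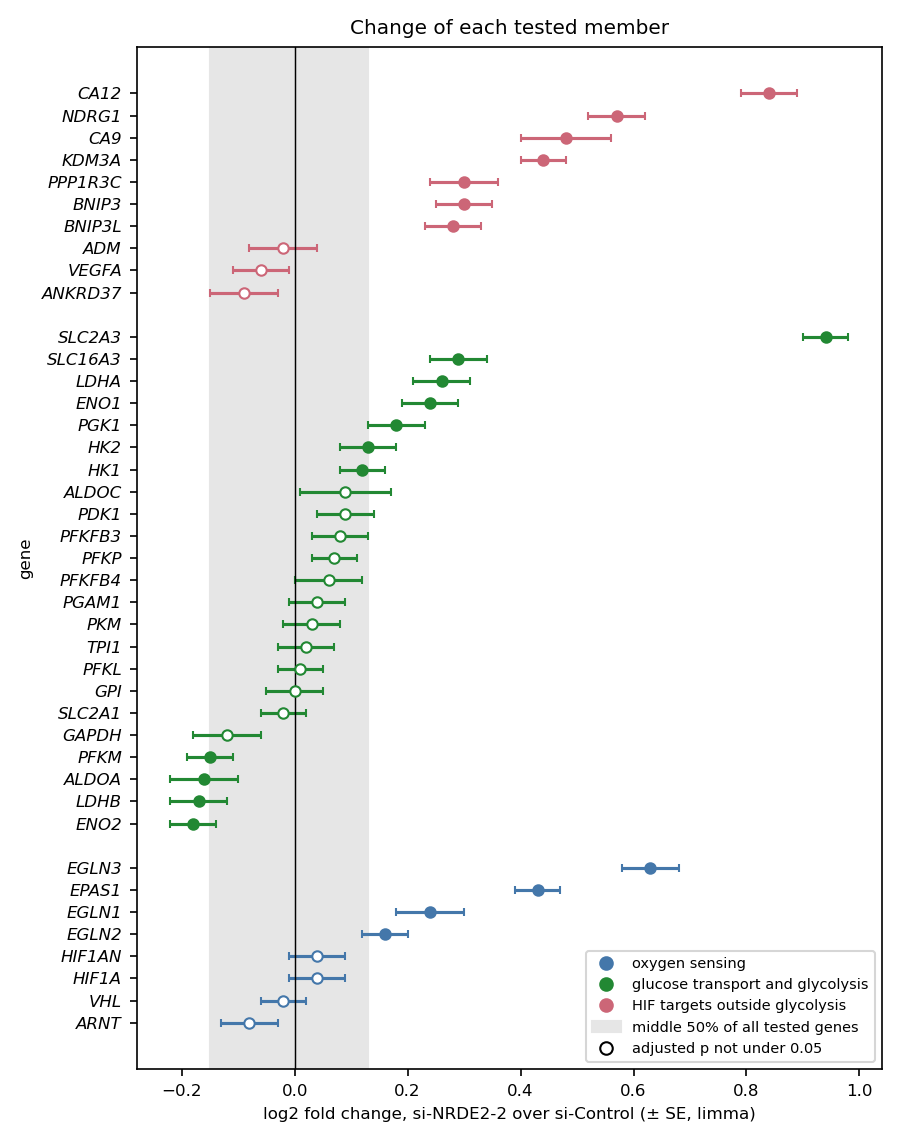
Log2 fold change ± SE (limma, si-NRDE2-2 over si-Control) of the 41 tested members, coloured by role, with open symbols where the adjusted p was not under 0.05 and a grey band for the middle 50% of all tested genes, from -0.15 to 0.13. SLC2A3 (0.94), CA12 (0.84) and EGLN3 (0.63) lie farthest to the right, and no member falls below -0.18.

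A further feature was read from the 3′ untranslated regions of GENCODE release 29 (GRCh38, longest coding transcript of each gene). The short sequence GACGTA, the longer GACAGTA and its variant GACTGTA had been picked in earlier work for their relation to fold changes in these same libraries, so their presence in a gene that rose is no independent evidence. At least 1 of them was in 7 of the 41 tested members (17.1%), beside 19.8% of 11111 tested genes with such a region. The 7 were SLC2A3, CA12, KDM3A and PGK1, which rose, and HIF1A, HIF1AN and PDK1, which did not pass. The sites of 3 that rose and of HIF1A are shown for comparison as 30 bases 5′ to 3′ on the strand of the gene, with the match in capitals.
CA12 (chr15:63325270-63325299, minus strand): cagaaacaaaatGACTGTAgaacttattct
KDM3A (chr2:86492263-86492292, plus strand): ctagtgtttacaGACAGTAaatgtgtatat
PGK1 (chrX:78127994-78128023, plus strand): ccaacaatctctGACTGTAccttttaagta
HIF1A (chr14:61747944-61747973, plus strand): atattttgagcaGACTGTAaacaagaaaaa

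EGLN3, EPAS1, NDRG1, CA9, BNIP3, BNIP3L, PPP1R3C, LDHA, ENO1 and SLC16A3 rose and had none of these sequences in that region. In an alternative chosen after the data were seen, the carriers were left out. The HIF targets then had a median log2 fold change of 0.29 with 5 of 8 higher, and the oxygen-sensing genes 0.20 with 4 of 6 higher. Glucose transport and glycolysis had 0.03 with 5 higher and 4 lower of 20.

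Other genes of the same pathways, taken from lists and named by rank of change, were read beside the members. Among 12 tested HIF partners and VHL-complex genes, 3 rose and 1 fell, with a median log2 fold change of 0.02. The share called was 33.3%, beside 44% of all tested genes. HSP90AA1, the chaperone that stabilises HIF-1α among many clients, was at 242, 251 and 251 FPKM in si-Control and at 402, 443 and 432 FPKM in si-NRDE2-2 (0.78 ± 0.05, limma adjusted p = 1.1e-06). ARNT2, a relative of ARNT, rose by a log2 fold change of 0.40 ± 0.05. SIAH2, a ligase that acts on prolyl hydroxylases, fell by 0.27 ± 0.06. CUL2, the scaffold of the VHL ligase, rose by 0.13 ± 0.05 (limma adjusted p = 0.0366) but lost the call in 9 of 16 alternatives. HSP90AA1 carries GACGTA in its 3′ untranslated region, while ARNT2, SIAH2 and CUL2 have none of the 3′ sequences. HIF3A, the third alpha subunit, was at 0.00296 FPKM in si-Control replicate 1 and listed at 0 in the other libraries.

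Of 30 further HIF targets tested, 11 rose and 5 fell, with a median log2 fold change of 0.04. The share called was 53.3%, beside 44% of all tested genes. WSB1, a ubiquitin ligase subunit, was at 18.5, 18.1 and 17.1 FPKM against 33.1, 33.1 and 31.9 FPKM (0.87 ± 0.05, limma adjusted p = 1.8e-07). PGM1, which links glycogen to glycolysis, was at 39.5, 38.6 and 40.4 FPKM against 72.8, 72.2 and 70.9 FPKM (0.86 ± 0.04, limma adjusted p = 6.9e-08). The chemokine receptor CXCR4 rose by 0.65 ± 0.05 and the mitochondrial adenylate kinase AK4 by 0.59 ± 0.05. Among those named after their values were seen, the collagen-modifying enzymes LOX (0.49 ± 0.06) and PLOD2 (0.48 ± 0.06) rose, with smaller rises of P4HA2 (0.21 ± 0.04) and P4HA1 (0.18 ± 0.05). Their relatives LOXL2 (0.08 ± 0.04) and PLOD1 (limma adjusted p = 0.968) did not pass. HMOX1, which degrades heme, fell by 0.32 ± 0.04. WSB1, PGM1, CXCR4 and P4HA2 carry a 3′ sequence of those above, and the other further HIF targets named in this paragraph do not. With all carriers left out, 6 of 25 rose and 5 fell, with a median of 0.02.

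Genes around pyruvate and the glycolytic side branches fell more often than they rose. Of 23 tested, 1 rose and 9 fell, with a median log2 fold change of -0.08. The share called was 43.5%, beside 44% of all tested genes (20.9% higher and 23% lower). The 1 that rose was SLC2A14, the near-identical copy of SLC2A3 with which reads can be shared. SLC2A14 carries the 3′ sequence GACAGTA, as SLC2A3 does. With only genes of at least 5 FPKM on average, 4 fell and 0 rose. ENO3, the muscle enolase, fell by 0.53 ± 0.08 (limma adjusted p = 0.00046), with means of 3.28 and 2.24 FPKM. PDK4 fell by 0.53 ± 0.08 (limma adjusted p = 0.0005), with means of 1.84 and 1.24 FPKM. Both are low and absent from the count with at least 5 FPKM. With every library kept, their log2 fold changes were as small as -0.40 and -0.34 in other settings. The hexokinase-like HKDC1 fell by 0.49 ± 0.05 (limma adjusted p = 3.9e-05). Named after their values were seen, PDK2 (-0.28 ± 0.06) and PDK3 (-0.38 ± 0.07) fell too, so that 3 of the 4 pyruvate dehydrogenase kinases were lower while PDK1 did not pass. MPC1, a subunit of the mitochondrial pyruvate carrier, fell by 0.45 ± 0.05. Carriers of the 3′ sequences fell here too: PDK4 has GACGTA, and PFKFB2 (-0.38 ± 0.07) has GACTGTA. With all carriers left out, 7 of 19 fell and 0 rose, with a median of -0.08.

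**Figure D5:**
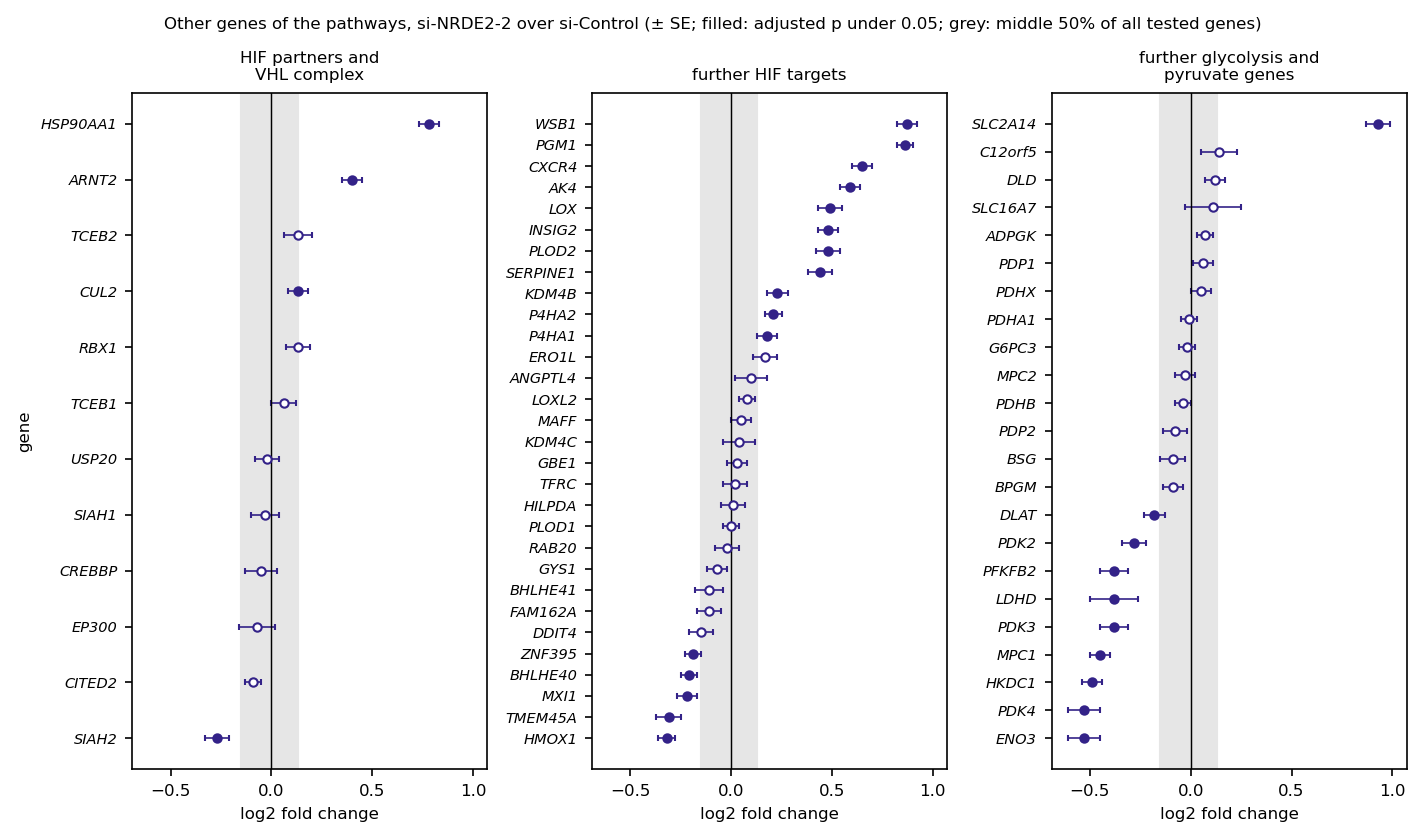
Log2 fold change ± SE (limma, si-NRDE2-2 over si-Control) of the tested genes of 3 further lists, filled where the adjusted p was under 0.05, with a grey band for the middle 50% of all tested genes. HSP90AA1, WSB1, PGM1 and SLC2A14 lie above 0.7, and ENO3, PDK4 and HKDC1 are the lowest.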

How the data were processed

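Poly(A) RNA of 6 libraries was sequenced from TruSeq Stranded mRNA libraries, per the labels' protocols. The deposited table holds FPKM per gene and library, made by the authors. STAR 2.5.1b, DESeq2 1.10.1 and hg19 are named in the submitters' processing notes, without their roles. No source used here gives the program that made the FPKM values, its annotation or its strand setting. Of the 25365 rows, 5825 were at 0 in all libraries, and 4 columns filled in only 3 rows were not used. Rows of small RNAs were left out.

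The 11789 genes that reached 1 FPKM in 3 or more libraries were fitted as log2(FPKM + 0.1). The tool was limma 3.58.1 (R 4.3.3, trended and robust variance prior), with group as its only term. No further scaling between libraries was applied in the main fit. FPKM totals per library ran from 448986 to 486271 in si-Control and from 461891 to 470165 in si-NRDE2-2. Adjusted p under 0.05 (Benjamini-Hochberg over all tested genes, two-sided) was called. The 0.1 added before the log2 step understates changes of low genes. Ratios are of group means. Depth came from the spacing of low FPKM values. It rests on 906 genes for the relative scale and 3221 for the absolute one, whose quartiles were 28700000 and 56900000 fragments.

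The members and lists were chosen with earlier results of these data known. All members were named, with at most 4 called genes of each further list by size of change. Values in single libraries are given for called members with an absolute log2 fold change of at least 0.4, for rate-limiting steps and for abundant genes, with others added. Python 3.11.15 and pandas 2.3.3 were used. Other pseudocounts, filters, scalings, a replicate block and leaving out each library were tried. Coordinates are of GRCh38, since no hg19 genome or annotation was at hand. A further list is not reported here.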

Additional observations from a re-analysis of the deposited data

How the results depend on the processing

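The 22 called members were refitted under up to 16 alternatives. Of these, 15 kept call and direction in all that were run, and EGLN2, HK1, HK2, PFKM, ALDOA, PGK1 and LDHB lost the call in at least 1. No called member changed sign. The cause of these differences was not tested. SLC16A1 was left out of the test by the filter on low values.

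The median log2 fold change of oxygen sensing was 0.101, with 0.143 when trends in GC content and length were removed and 0.198 without carriers of the 3′ sequences. For glucose transport and glycolysis it was 0.064, with 0.102 and 0.031 under those settings and 0.007 to 0.069 with 1 library left out. With 1 library left out 4 to 7 of these genes were higher and 1 to 4 lower, against 7 and 4 as reported. With trends removed 10 were higher and 4 lower, PFKP, PFKFB3 and PDK1 being gained, and with libraries scaled to the same total 6 were higher and 5 lower. With quantile normalization 1 HIF target was lower, VEGFA.

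Among members that did not pass, the sign of the log2 fold change turned in 8. With GC content and length trends removed HIF1A was at -0.03, SLC2A1 at 0.005 and ADM at 0.02. With quantile normalization GPI was at -0.03, PFKL at -0.01 and GAPDH at 0.04, and GPI was at -0.0016 with libraries scaled to the same total. With 1 library left out VHL ran from -0.04 to 0.0022, SLC2A1 from -0.05 to 0.0033, GPI from -0.03 to 0.03, PFKL from -0.01 to 0.04, TPI1 from -0.01 to 0.06 and ADM from -0.06 to 0.04. The log2 difference of HK2 to HK1 ran from -0.02 to 0.05 and that of PFKFB4 to PFKFB3 from -0.05 to 0.02.

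In the further lists, HIF partners and VHL-complex genes had 5 higher and 2 lower (3 and 1 as reported) with quantile normalization, with trends removed or without si-Control replicate 3. They had 2 higher and 1 lower without the filter on low values, with a replicate block or without the trended variance prior. The same counts came without replicate 1 or 2 of si-Control or replicate 2 or 3 of si-NRDE2-2.

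The main fit did not pair libraries by replicate number. The check that follows rests on 3 libraries a group, so it cannot tell whether same-numbered libraries belonged together. Deviations from the group means of same-numbered libraries correlated at -0.123, 0.105 and -0.121 over 11789 genes, and 1 of 3 si-Control libraries correlated best with its own number. With a replicate block 2254 genes were higher and 2432 lower (2469 and 2716 without it), and the genes of glucose transport and glycolysis had 5 higher and 3 lower.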
